A study of Mus musculus with 2 samples.

Results

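The transcripts of 7 genes of MHC class II antigen presentation (H2-Aa, H2-Ab1, H2-Eb1, H2-DMa, H2-DMb1, Cd74 and Ciita) were followed through every cell class of dystrophic mouse muscle, including the classes that are not immune cells. The genes were taken by symbol, and all 7 were found among the 24984 gene symbols of the files. Dendritic cell-like cells had the highest summed level of the 7 genes, ahead of B cell-like cells and then of monocytes and macrophages, which by their number held most of the class II mRNA. In the monocyte and macrophage class, the 3 chain genes and Cd74 were 1.23 to 1.42 times as high in the library with Yy1 deleted in muscle stem cells as in the control library, while the ratios of H2-DMa, H2-DMb1 and Ciita lay between 0.949 and 1.07. B cell-like cells had the same summed level in both libraries (ratio 0.999), and the 5 non-immune classes together held 0.992% and 0.715% of the class II UMIs.

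The libraries were made from mice that carry the mdx mutation, which lack dystrophin and are used to model Duchenne muscular dystrophy. Ctrl mice were Pax7 CreERT2/R26YFP; Yy1 +/+; mdx, and dKO mice were Pax7 CreERT2/R26YFP; Yy1 f/f; mdx, so that both groups carried the Pax7-driven inducible Cre, the YFP reporter and the dystrophin defect. Yy1 encodes a transcription factor with zinc fingers, and the Cre acts in Pax7-expressing muscle stem cells (MuSCs), so Yy1 is not targeted in immune cells. Both groups received tamoxifen for 5 days from 1.5 months of age, and live mononuclear cells were sorted from hind limb muscle 1 month later. The tamoxifen of the Ctrl mice is known from the methods, whereas their label reads as no treatment. Each group was 1 library of cells pooled from 3 mice. Replicates are therefore lacking, differences could not be set against a spread between animals or libraries, and nothing was tested.

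MHC class II molecules are pairs of an α and a β chain that carry peptides from endocytosed proteins to the cell surface, where CD4 T cells read them. H2-Aa and H2-Ab1 encode the α and β chain of I-A, and H2-Eb1 encodes the β chain of I-E, whose α chain gene is a pseudogene in C57BL mice (H2-Ea-ps). Cd74 encodes the invariant chain, which guides new class II molecules to the endosome and blocks their groove until it is cut away. H2-DMa and H2-DMb1 encode the 2 chains of H2-M, which releases the last piece of the invariant chain and favours tightly bound peptides. Ciita encodes the transactivator that is recruited to a shared set of promoter boxes (the X and Y boxes among them) and sets the transcription of the others. Dendritic cells, B cells and macrophages are the professional antigen-presenting cells, and in other cells class II expression is mostly inducible, by interferon-gamma above all.

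The promoters of H2-Aa and H2-Eb1 are shown as examples from chain genes, whose levels followed each other through all classes. H2-Ab1, Cd74 and Ciita had no RefSeq promoter entry, and H2-DMa had 2 entries and was not searched. The stretches are the 150 bases before the RefSeq start of the gene (GRCm38.p6), written 5′ to 3′ on the strand of the gene. Capitals mark the Y box core ATTGG, or CCAAT where it lies on the other strand. H2-Aa lies at chr17:34287824-34287973 on the minus strand and H2-Eb1 at chr17:34305717-34305866 on the plus strand.
H2-Aa: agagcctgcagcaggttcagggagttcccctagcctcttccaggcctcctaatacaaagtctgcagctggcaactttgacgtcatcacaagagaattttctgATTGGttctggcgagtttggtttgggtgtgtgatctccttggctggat
H2-Eb1: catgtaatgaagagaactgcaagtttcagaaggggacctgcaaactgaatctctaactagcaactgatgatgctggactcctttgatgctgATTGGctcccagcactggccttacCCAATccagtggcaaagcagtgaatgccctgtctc
The first base of ATTGG lay 48 bases before the start of H2-Aa and 59 bases before that of H2-Eb1, which had a second core on the other strand at 35 bases. In H2-DMb1, whose upstream stretch overlaps an annotated exon and is not printed, ATTGG lay 61 bases and the X box core CCNAGNAAC 98 bases before the start. The printed stretches of H2-Aa and H2-Eb1 held no exact match of this X box core, and looser matches were not searched for. Of the 32851 RefSeq promoters, 24.5% held ATTGG and 2.71% held CCNAGNAAC within 150 bases before the start on either strand, so a match is a description and not a site.

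In all 4527 Ctrl and 3483 dKO cells were deposited, and after a filter of 500 genes per cell and removal of doublet candidates 4010 Ctrl and 3079 dKO cells remained, at median depths of 7880 and 7806 UMIs. Of the kept barcodes, 6 occurred in both libraries. Cells were clustered without the class II genes, so that these could not shape the classes, and the 22 clusters gave 12 classes of at least 30 cells per library. The largest were FAP-like cells (fibro-adipogenic progenitors, 1135 Ctrl and 1187 dKO cells), MO/MP-like cells (monocytes and macrophages, 1182 and 953 cells) and EC-like cells (endothelial cells, 466 and 179 cells). A cluster led by Fcna and Cd163 and a cycling MO/MP-like cluster were kept as classes of their own. Levels are given as CPM, the usual depth-scaled unit, here the UMIs of a gene over all UMIs of the class in that library, and intervals are 95% intervals that cover counting error only. Yy1 had 369 UMIs in the Ctrl and 3 in the dKO MuSC-like cells, a ratio of CPM of 0.0303 (0.00623 to 0.0894), against 0.676 to 1.26 in the other 11 classes.

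Of the 7 genes, 5 lie in the MHC region of chromosome 17 (GRCm38, GENCODE M21). These are H2-DMa at chr17:34119541-34139101, H2-DMb1 at chr17:34153072-34160230, H2-Ab1 at chr17:34257689-34269419, H2-Aa at chr17:34282744-34287823 and H2-Eb1 at chr17:34305867-34316674, all on the plus strand except H2-Aa. Ciita lies at chr16:10480059-10528418 and Cd74 at chr18:60803848-60812652, both on the plus strand. H2-DMa overlaps Brd2 on the opposite strand over 3094 bases, H2-Eb1 overlaps the antisense gene Gm20513 over 2204 bases, and Ciita overlaps Dexi on the opposite strand. H2-DMb1 has a near-identical neighbour, H2-DMb2, so that the split of reads between them is uncertain.

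Most class II mRNA was found in few cells. MO/MP-like cells held 61.1% of the UMIs of the 7 genes in Ctrl and 60.3% in dKO, and made up 29.5% and 31.0% of the cells. Dendritic cell-like cells held 24.9% and 27.6% of the UMIs from only 2.87% and 3.38% of the cells. B cell-like cells held 4.11% and 3.42% of the UMIs from 3.59% and 2.83% of the cells, a share close to their number. The cycling MO/MP-like cluster added 6.32% and 4.25%, and the Fcna+ Cd163+ cluster 2.47% and 3.59%. The 5 non-immune classes together (FAP-like, tenocyte-like, EC-like, smooth muscle/pericyte-like and MuSC-like cells) made up 49.1% and 49.5% of the cells and held 0.992% (0.95 to 1.04) of the UMIs in Ctrl and 0.715% (0.676 to 0.755) in dKO. MO/MP-like and dendritic cell-like cells thus came first and second in both libraries, and the difference in the share of MO/MP-like cells was -0.763 percentage points (dKO minus Ctrl). It was 0.350 points, in the other direction, when the Fcna+ Cd163+ cluster was counted as MO/MP-like.

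**Figure D1:**
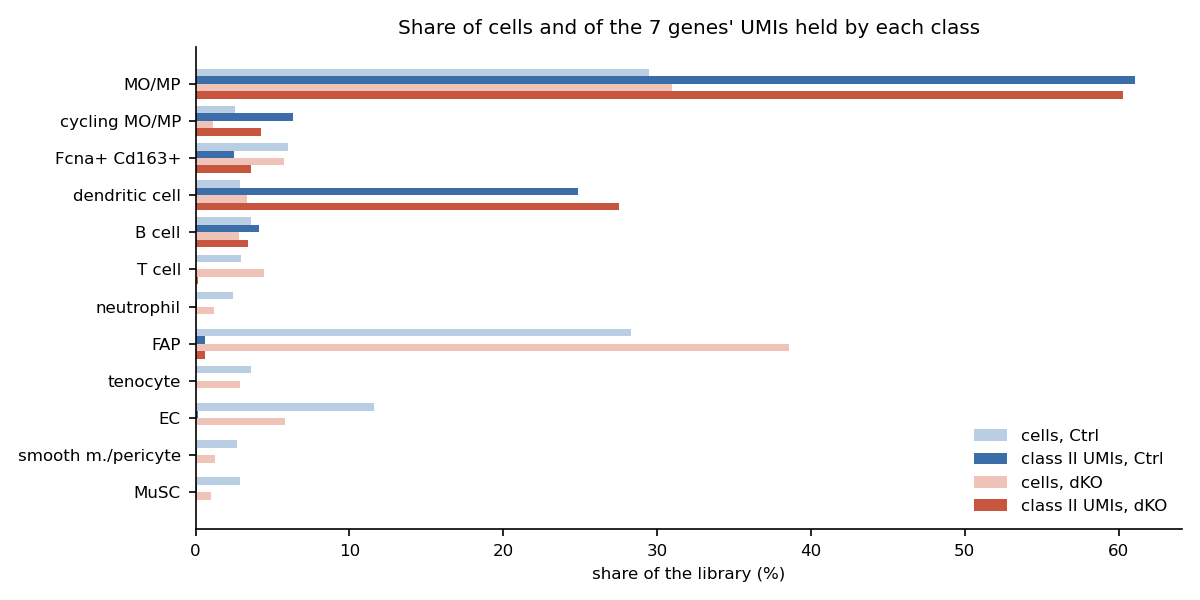
Share of all kept cells (pale bars) and of the UMIs of the 7 class II genes (dark bars) held by each class, in percent of the Ctrl library (blue) and of the dKO library (red). Dendritic cell-like cells are 2.87% and 3.38% of the cells and hold 24.9% and 27.6% of the UMIs, whereas FAP-like cells are 28.3% and 38.6% of the cells and hold 0.586% and 0.613%.

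The order of the classes was the same for the 3 chain genes. H2-Aa was at 8477 CPM (8306 to 8651) in Ctrl and 9209 (9016 to 9404) in dKO dendritic cell-like cells, at 3577 (3387 to 3776) and 3794 (3560 to 4039) in B cell-like cells, and at 1849 (1825 to 1874) and 2580 (2545 to 2616) in MO/MP-like cells. H2-Ab1 was at 8921 and 10121 CPM in dendritic cell-like, 3355 and 3400 in B cell-like and 1800 and 2328 in MO/MP-like cells. H2-Eb1 was at 7173 and 8383 CPM, at 2672 and 2723 CPM and at 1434 and 2037 CPM in the same classes. In each case the intervals of the 3 classes lay apart in both libraries. The Fcna+ Cd163+ cells had lower levels of each of the 3 genes than MO/MP-like cells, and so had the cycling cells in Ctrl, whereas in dKO H2-Ab1 was higher in cycling cells, at 2595 CPM (2466 to 2729). In T cell-like and neutrophil-like cells each of the 3 genes was under 100 CPM, and in the 5 non-immune classes between 3.23 and 32.9 CPM.

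Of the genes of peptide editing, H2-DMa kept this order and H2-DMb1 did not. H2-DMa was at 747 CPM (697 to 800) in Ctrl and 613 (564 to 665) in dKO dendritic cell-like cells, at 396 (334 to 465) and 379 (308 to 462) in B cell-like cells and at 305 (296 to 315) and 290 (278 to 302) in MO/MP-like cells. H2-DMb1 was at 669 (621 to 719) and 822 CPM (765 to 882) in dendritic cell-like cells, but higher in MO/MP-like cells, at 233 (225 to 242) and 249 (238 to 260), than in B cell-like cells, at 122 (89.0 to 163) and 112 (75.1 to 161). B cell-like cells held more UMIs of the neighbouring H2-DMb2 (154 and 95) than of H2-DMb1 (45 and 29), and MO/MP-like cells far fewer (60 and 38 against 2845 and 1966).

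Cd74, the invariant chain, was at 21195 and 21988 CPM in dendritic cell-like cells, at 12979 and 12670 CPM in B cell-like cells and, in the MO/MP-like class, at 4801 and 5924 CPM. Its share of the UMIs of the 7 genes was 55.9% and 54.6% in B cell-like cells, above the 44.9% and 43.0% in dendritic cell-like and the 46.0% and 44.1% in MO/MP-like cells. The shares compare UMI numbers of the same genes between classes and not levels per gene length.

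Ciita had another order. It was highest in B cell-like cells, at 117 CPM (84.3 to 157) in Ctrl and 120 (81.5 to 170) in dKO, and lower in dendritic cell-like cells, at 60.1 (46.4 to 76.4) and 56.1 (42.0 to 73.4), although those held more than 2 times as much of each chain transcript. MO/MP-like cells had 14.5 CPM (12.4 to 16.8) and 15.5 (12.8 to 18.5), at which the cycling MO/MP-like cells (15 and 22.1 CPM) and the Fcna+ Cd163+ cells (16.3 and 18.9 CPM) did not stand apart. The B cell-like values rest on 43 and 31 UMIs and the dendritic cell-like values on 66 and 53. Ciita had 0 UMIs in MuSC-like cells of both libraries, which allows up to 1.60 CPM in Ctrl and 5.96 CPM in dKO, and 0 UMIs in tenocyte-like and smooth muscle/pericyte-like cells. FAP-like cells had 3 UMIs in 1135 Ctrl cells and 2 UMIs in 1187 dKO cells, and EC-like cells had 1 and 0.

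**Figure D2:**
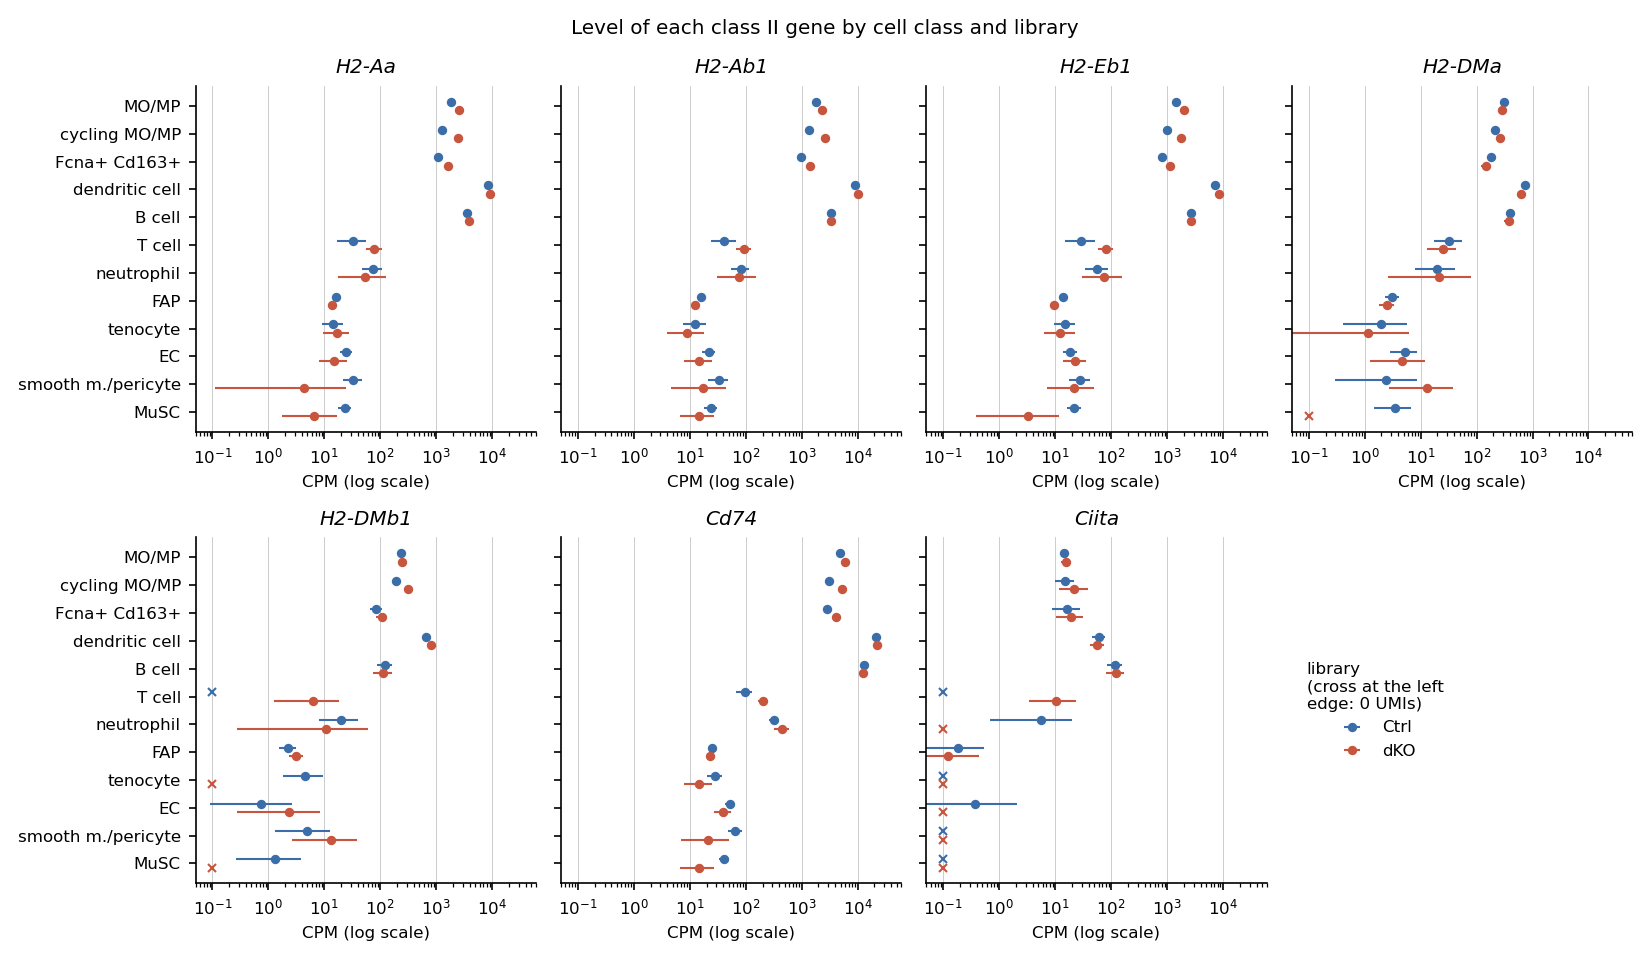
Level of each class II gene in CPM on a log axis, by cell class, in the Ctrl library (blue) and the dKO library (red). Points are CPM of the class with exact Poisson 95% intervals (counting error, cut at the left edge of the axis), and a cross marks 0 UMIs. Dendritic cell-like cells lead for every gene but Ciita, which is highest in B cell-like cells (117 and 120 CPM).

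Across the 12 classes of both libraries (24 points that share libraries), the chain genes followed each other closely on the scale of log2(CPM + 10). Pearson's r was 0.996 between H2-Aa and H2-Ab1 and 0.997 between H2-Ab1 and H2-Eb1. Each of H2-DMa (0.989) and Cd74 (0.991) was also most like H2-Ab1. The lowest value was that of H2-DMb1 and Ciita, at 0.813, and the gene most like Ciita was none of the others but Ero1lb, which encodes an oxidase of the endoplasmic reticulum, at 0.962. Outside the 7 genes, those most like their mean were Pkib (0.97), Cd83 (0.96), Slamf7, Rnase6, Fgd2, Wdfy4, Cd86, Arl5c, March1 and Ly86 (0.90). Among these, Cd83 encodes a surface protein of mature dendritic cells and activated B cells, Cd86 a costimulator of T cells, and March1 a ubiquitin ligase that removes class II molecules from the surface.

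Between the libraries, MO/MP-like cells had 10437 CPM of the 7 genes together in Ctrl and 13423 CPM in dKO, a ratio of 1.29 (1.28 to 1.30). The chain genes contributed most of this. H2-Aa was at 1849 CPM in Ctrl and 2580 CPM in dKO, a ratio of 1.40 (1.37 to 1.42), and H2-Eb1 at 1434 and 2037 CPM, a ratio of 1.42 (1.39 to 1.45). H2-Ab1 was 1.29 times as high (1.27 to 1.32) and Cd74 1.23 times (1.22 to 1.25). The ratios of the editor and transactivator genes lay nearer to 1. H2-DMa had a ratio of 0.949 (0.901 to 1.00), H2-DMb1 of 1.07 (1.01 to 1.13) and Ciita of 1.07 (0.840 to 1.35), the last from 177 and 122 UMIs. The interval of Ciita also holds the ratios of H2-Ab1 and Cd74, so it cannot show whether Ciita moved with them. None of the 7 genes reached a ratio of 1.5, which 5.07% of the 9708 genes with at least 50 UMIs in this class did, and 0 were at or below the inverse of it. The median log2 ratio of the 7 genes was 0.30, and that of all genes tested was near 0 (-0.0042). The median depth of these cells was 8861.5 UMIs in Ctrl and 7330 in dKO. The 12 markers of monocytes and macrophages summed to 14960 and 15048 CPM, but single markers moved in opposite directions, with Lyz2 at 4447 and 3268 CPM, Ly6c2 at 117 and 358 CPM and Fcgr1 at 190 and 346 CPM. The dendritic cell markers summed to 144 and 199 CPM and the 7 B cell markers to 15 and 13.8 CPM, and the part of these shifts in the ratio was not tested.

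**Figure D3:**
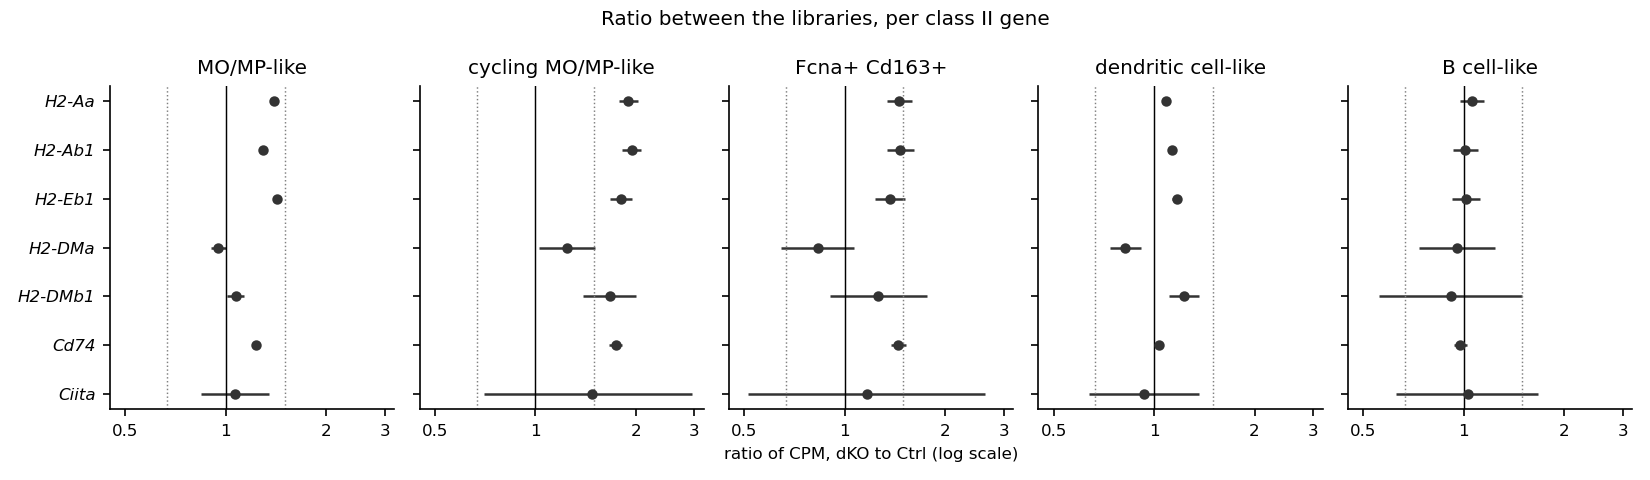
Ratio of CPM, dKO to Ctrl, of each class II gene on a log axis in 5 classes, with 95% binomial intervals (counting error only). The solid line marks 1 and the dotted lines 1.5 and its inverse. H2-DMa lies below the chain genes in each panel, at 0.949 in MO/MP-like and 0.820 in dendritic cell-like cells, and in B cell-like cells every interval includes 1.

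MO/MP-like cells were made of 4 clusters whose class II level ran from 3284 to 26067 CPM in Ctrl. The cluster led by Slpi, Chil3 and Ly6c2, genes of inflammatory monocytes, had 3284 CPM of the 7 genes in Ctrl and 3017 CPM in dKO, a ratio of 0.919 (0.882 to 0.956). The cluster led by Spp1 and Gpnmb, known from macrophages of injured tissue, had 6363 and 8280 CPM, a ratio of 1.30 (1.28 to 1.32). The cluster with Ms4a7 and C1qa among its leading genes had 14921 and 19246 CPM, a ratio of 1.29 (1.27 to 1.31). The cluster led by Ear2, with Retnla and Itgax, had the highest level, 26067 and 27450 CPM, at a ratio of 1.05 (1.04 to 1.07). The ratio was thus highest in the middle clusters, and the monocyte cluster had the lower value in dKO. The clusters also differed in size, and the Ear2 cluster held 96 of the 1182 Ctrl and 116 of the 953 dKO cells. With the clusters weighted as in Ctrl, the log2 ratio of the whole class was 0.28 in place of 0.36. H2-DMa had a ratio below 1 in all 4 clusters, from 0.831 to 0.924, with 1 inside the counting interval in 2 of them.

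Cells of the same class differed from each other far more than the libraries did. In MO/MP-like cells the median cell had 2319 CPM of the 7 genes in Ctrl and 3075 CPM in dKO, the 10th percentile lay at 108 and 96.0 CPM and the 90th at 35318 and 42586 CPM. The 10% of cells with most class II UMIs held 52.6% and 50.2% of them. B cell-like cells were even by comparison, with a median cell at 23605 and 25822 CPM, and their highest 10% of cells held 20.9% and 18.2% of the UMIs. Thinning brought each cell down to 2000 UMIs, and 57 Ctrl and 63 dKO MO/MP-like cells were too shallow for it. After it, 78.1% (75.6 to 80.5) and 79.8% (77.0 to 82.4) of MO/MP-like cells had at least 1 UMI of the 7 genes, against 92.6% and 91.3% unthinned. The share was 97.2% and 98.0% in dendritic cell-like cells, and 14.9% and 12.3% in FAP-like cells, whose own median depth was 12100 and 12080 UMIs.

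**Figure D4:**
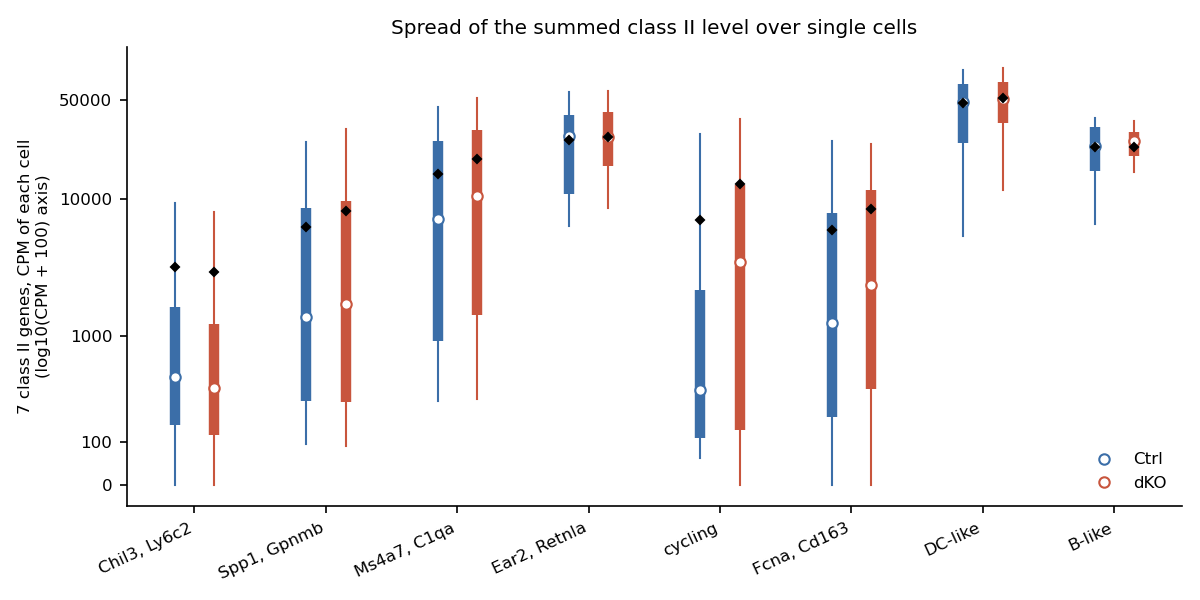
Summed CPM of the 7 class II genes per cell, on an axis of log10(CPM + 100), for the 4 MO/MP-like clusters (named by leading genes), the cycling cluster, the Fcna+ Cd163+ cluster, dendritic cell-like and B cell-like cells. Thin lines run from the 10th to the 90th percentile of cells, thick bars from the 25th to the 75th, white points are medians and black diamonds the CPM of the cells summed. Medians climb from 471 and 378 CPM in the Chil3 and Ly6c2 cluster to 27745 and 27283 CPM in the Ear2 and Retnla cluster (Ctrl and dKO).

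The ratio was larger in the cycling MO/MP-like cluster, which was small (103 Ctrl and 35 dKO cells). The 7 genes summed to 7054 CPM in Ctrl and 12704 CPM in dKO, a ratio of 1.80 (1.75 to 1.85). The median cell was at 365 CPM in Ctrl and 3570 CPM in dKO, and the 10% of cells with most class II UMIs held 72.3% and 53.8% of them. H2-Ab1 was at 1333 and 2595 CPM, a ratio of 1.95 (1.82 to 2.08), and 5 of the 6 members with at least 50 UMIs passed 1.5-fold, against 11.4% of all genes in that class. The exception was H2-DMa, at 210 and 262 CPM, with a ratio of 1.25 (1.03 to 1.51). A single cell held 10.9% of the class II UMIs of this cluster in Ctrl and 15.5% in dKO, and without these cells the ratio was 1.79 (1.73 to 1.84). The make-up of the cluster differed between the libraries. Its 12 markers of monocytes and macrophages summed to 7818 CPM in Ctrl and 4928 CPM in dKO. Among them, Chil3 stood at 879 and 5.11 CPM and Ly6c2 at 441 and 138 CPM. Both genes were higher in neutrophil-like cells (Chil3 1751 and 1134 CPM, Ly6c2 836 and 648 CPM) than in MO/MP-like cells. In the cycling cluster, dendritic cell markers stood at 319 and 535 CPM and B cell markers at 120 and 47.7 CPM. The part of these shifts in the ratio was not tested.

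The cluster led by Fcna and Cd163, with Ccl8 and Lyve1 (Cd163 and Lyve1 are known from resident macrophages), had 5994 CPM of the 7 genes in Ctrl and 8516 CPM in dKO, a ratio of 1.42 (1.37 to 1.47). The median cell had 1265 and 2440 CPM. H2-Aa was at 1095 and 1596 CPM (1.46, 1.34 to 1.59), H2-Ab1 at 966 and 1418 CPM (1.47, 1.34 to 1.61) and Cd74 at 2834 and 4107 CPM (1.45, 1.37 to 1.53), while H2-DMa was at 179 and 149 CPM (0.831, 0.645 to 1.07). None of the 6 members with at least 50 UMIs passed 1.5-fold, which 8.98% of all genes did, but at clustering resolution 1.2 H2-Ab1 (log2 ratio 0.66), H2-Aa (0.66) and Cd74 (0.61) did, and without integration so did H2-Aa (0.64) and H2-Eb1 (0.59). These cells were shallow, with a median of 2581 and 2997.5 UMIs. Their 12 markers of monocytes and macrophages summed to 18494 CPM in Ctrl and 18957 CPM in dKO, 124% and 126% of the MO/MP-like level.

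In dendritic cell-like cells the 7 genes together had 47242 CPM in Ctrl and 51191 CPM in dKO, a ratio of 1.08 (1.07 to 1.10), and with cells of at least 200 genes and 1000 UMIs the direction turned (log2 ratio -0.0067). H2-Eb1 was 1.17 times (1.13 to 1.21) and H2-DMb1 1.23 times (1.11 to 1.36) as high in dKO, whereas H2-DMa had a ratio of 0.820 (0.736 to 0.913). None of the 7 genes passed 1.5-fold, which 8.84% of genes did upwards. The dendritic cell markers of this class summed to 1572 CPM in Ctrl and 2032 CPM in dKO. The largest of them was Cd209a in Ctrl (367 of 1727 UMIs) and Ccr7 in dKO (629 of 1920 UMIs). The part of these shifts in the ratio was not tested. At a finer resolution some cells were led by Cd209a, a gene of monocyte-related and type 2 dendritic cells, with Ccr7 next among their leading genes. The others were led by Xcr1, which marks cross-presenting dendritic cells. The Cd209a cells had 45626 CPM of the 7 genes in Ctrl and 52292 CPM in dKO (72 cells each), and the Xcr1 cells had 49930 and 49223 CPM (42 and 32 cells). H2-DMa was lower in dKO in both, at 654 and 620 CPM in the Cd209a cells and at 896 and 599 CPM in the Xcr1 cells. The intervals overlapped in the first (594 to 717 and 559 to 686) and not in the second (808 to 991 and 519 to 687).

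B cell-like cells had 23218 CPM of the 7 genes in Ctrl (144 cells) and 23198 CPM in dKO (87 cells), a ratio of 0.999 (0.967 to 1.03). The ratios of the single genes ran from 0.920 for H2-DMb1 (0.556 to 1.5) to 1.06 for H2-Aa (0.976 to 1.15), and every interval included 1. None passed 1.5-fold, which 6.43% of genes did upwards.

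T cell-like cells, which in the mouse make little class II, had 231 CPM of the 7 genes in Ctrl and 499 CPM in dKO, and 4 genes with at least 50 UMIs passed 1.5-fold, as did 7.93% of all genes. Of these, H2-Aa (13 and 38 UMIs), H2-Ab1 (17 and 45) and H2-Eb1 (12 and 39) would have stayed under the minimum at their Ctrl level in both libraries, so nothing is read from the number. Of the 137 dKO cells, 3 had at least 10 class II UMIs and held 56.2% of the total, and without cells of that kind the levels were 231 and 226 CPM, a ratio of 0.979 (0.734 to 1.31). Neutrophil-like cells had 570 and 680 CPM, of which 1 cell per library held 61.6% and 63.5%.

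In the non-immune classes class II transcripts stood near the level of macrophage transcripts in the same cells. FAP-like cells had 76.1 CPM of the 7 genes in Ctrl (71.9 to 80.5) and 64.6 CPM in dKO (60.8 to 68.6), which is 0.729% and 0.481% of the level in MO/MP-like cells. The 12 markers of monocytes and macrophages, none of them at 0, stood at 0.511% and 0.412% of their own MO/MP-like level in the same cells. The class II level of EC-like cells was 123 CPM (110 to 137) and 98.7 CPM (78.9 to 122), or 1.17% and 0.735%, and the markers stood at 0.692% and 0.579%. Smooth muscle/pericyte-like cells had 165 and 90.7 CPM (1.59% and 0.676%, markers 1.86% and 1.78%), and tenocyte-like cells 76.4 and 54.2 CPM (0.732% and 0.403%, markers 0.502% and 0.225%). In Ctrl, 2 of the 107 smooth muscle/pericyte-like cells held 61.0% of the class II UMIs, and in cells with under 10 class II UMIs the levels were 66.7 and 90.7 CPM, with the direction turned (ratio 1.36, 0.780 to 2.29). In the smooth muscle/pericyte-like and the tenocyte-like class Cd74 was the only member with at least 50 UMIs, at 64.5 and 21.6 CPM in the smooth muscle/pericyte-like and 28.1 and 14.7 CPM in the tenocyte-like cells. In the 8 cases other than smooth muscle/pericyte-like cells the class II value lay above that of the markers. Free RNA from lysed cells, or doublets, give such low levels of genes from other cells, and their part was not tested.

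**Figure D5:**
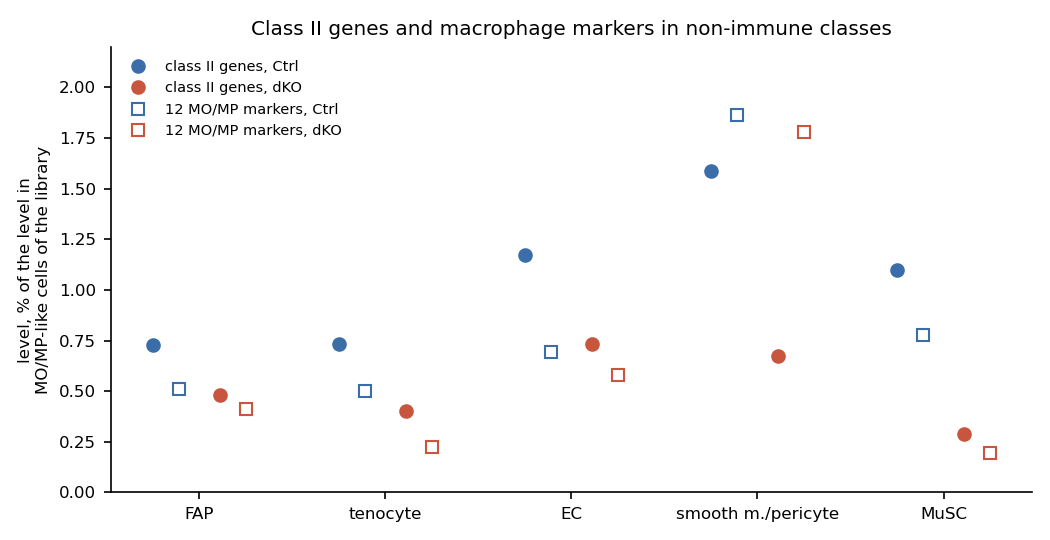
Level of the 7 class II genes (filled circles) and of 12 monocyte and macrophage markers (open squares) in 5 non-immune classes, each as percent of its level in MO/MP-like cells of the same library (Ctrl blue, dKO red). All values lie under 2%, and the lowest are those of the dKO MuSC-like cells, at 0.289% and 0.193%.

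The ratio of FAP-like cells was 0.849 (0.781 to 0.922), with H2-Eb1 at 13.9 CPM in Ctrl and 9.48 CPM in dKO (0.681, 0.552 to 0.838) and Cd74 at 24.8 and 23.3 CPM (0.941, 0.816 to 1.08). Alone among the tested members, H2-DMb1 had a ratio above 1, at 2.24 and 3.18 CPM (1.42, 0.913 to 2.23). None of the 6 members with at least 50 UMIs was lower by 1.5-fold, as were 4.11% of all genes. The 4 FAP-like clusters did not share a direction. The ratio was 0.693 (0.615 to 0.780) in the cluster led by Postn and 1.28 (1.05 to 1.57) in that led by Inmt and Gdf10, and 0.910 (0.704 to 1.18) and 0.918 (0.760 to 1.11) in the others. The ratio of the whole class depended on doublet removal, since with no doublets removed it was above 1 (log2 ratio 1.08). Of the FAP-like cells, 7 in Ctrl and 6 in dKO had at least 10 class II UMIs, and all of these also had a UMI of at least 1 of 8 immune genes (Ptprc, Tyrobp, Fcer1g, Lyz2, C1qa, C1qb, Cd79a and Cd3e). In the 499 Ctrl and 673 dKO cells with no UMI of those genes, the class II level was 71.3 CPM (64.3 to 78.9) and 50.3 CPM (45.5 to 55.5).

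MuSC-like cells had 265 class II UMIs in 116 Ctrl cells and 24 UMIs in 30 dKO cells. All 10 markers of MuSCs were enriched in this cluster, but so were 8 markers of cycling cells and 6 of myocytes, and its leading genes included Myog, Mymx, Ttn and Neb, which are known from differentiating muscle cells, so the class was not made of stem cells alone by its markers. The levels were 115 CPM (101 to 129) and 38.8 CPM (24.8 to 57.7), a ratio of 0.338 (0.213 to 0.514). The 4 genes with at least 50 UMIs (H2-Aa, H2-Ab1, H2-Eb1 and Cd74) were lower by 1.5-fold or more, as were 16.0% of all genes in that class. They would have stayed under the minimum at their dKO level in both libraries, so nothing is read from the number, and H2-Ab1 rests on 9 dKO UMIs with an interval that included 1 (0.611, 0.265 to 1.25). A single Ctrl cell held 35.1% of the UMIs, and without the cell with most class II UMIs in each library the levels were 75.1 and 36.8 CPM, a ratio of 0.490 (0.296 to 0.773). The 12 macrophage markers were lower too, at 116 CPM in Ctrl and 29.1 CPM in dKO with 1 and 5 of them at 0, and their part in the ratio was not tested. In cells with no UMI of the 8 immune genes (45 in Ctrl, 19 in dKO) the levels were 73.6 CPM (51.8 to 101) and 48.0 CPM (26.2 to 80.5), and these intervals overlap. In EC-like cells the ratio was 0.805 (0.627 to 1.02), and H2-Aa, with 65 UMIs in Ctrl and 13 in dKO, had a ratio of 0.614 (0.310 to 1.12). It was past 1.5-fold, as were 11.1% of all genes, but it reached 50 UMIs through Ctrl and its interval included 1, so nothing is read from this call. In Ctrl 4 EC-like cells held 30.8% of the UMIs, and in cells with under 10 class II UMIs the ratio was 1.02 (0.774 to 1.32). The cluster led by Gpihbp1 had a ratio of 0.492 (0.312 to 0.745), against 1.29 (0.879 to 1.88) in that led by Selp and 1.34 (0.655 to 2.70) in that led by Cytl1. The mean over EC-like cells of their own CPM gave the other direction (log2 ratio 0.10).

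The other genes of the pathway were followed as lists, 34 genes in all that are in the files. In MO/MP-like cells, 29 of them had at least 50 UMIs, 2 were higher in dKO by 1.5-fold and 0 lower, against 5.07% and 4.19% of all genes, so that the number higher was close to the background. Irf1, a transcription factor induced by interferon-gamma that acts on a Ciita promoter, was at 40.6 CPM in Ctrl and 67.7 CPM in dKO, a ratio of 1.67 (1.47 to 1.89). Cd40, the receptor for T cell help, was at 20 and 37.8 CPM, a ratio of 1.89 (1.59 to 2.25). From the list of interferon-gamma and its receptors, 4 genes were tested in MO/MP-like cells and 0 were past 1.5-fold. In T cell-like cells 4 genes of that list were tested, 0 were higher and 1 was lower in dKO, against 7.93% and 4.12% of all genes. The other 9 transcription factors of class II promoters followed here lay within 1.5-fold, among them Rfx5 (4.42 and 4.18 CPM) and Rfxap (38.8 and 37.0 CPM), which bind the X box. Of the 7 genes for cutting the invariant chain and for antigen breakdown, Ctss, the protease of its last step, had a ratio of 1.09 (1.08 to 1.11), and Ctsl had the lowest, 0.695 (0.680 to 0.711).

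In dendritic cell-like cells 28 of these genes were tested, 3 were higher in dKO (H2-Eb2, Nfyb and Cd80) and 2 lower (H2-DMb2 and Ctsl), close to the 8.84% and 6.19% of all genes. The interval of H2-Eb2 included 1 (0.991 to 2.60). H2-DMb2, at 90.1 and 55.0 CPM, had a ratio of 0.611 (0.428 to 0.863), opposite in direction to its neighbour H2-DMb1 in the same cells. Irf1 (65.5 and 63.5 CPM) was not higher in dKO there. In B cell-like cells 13 genes were tested, 0 were higher and 2 lower (Ctss and Ctsd), against 110 higher and 137 lower of all 1712 genes. H2-Oa and H2-Ob, the chains of the H2-M inhibitor H2-O, were found mostly in these 2 classes, with H2-Ob at 474 and 472 CPM in B cell-like, 90.1 and 63.5 CPM in dendritic cell-like and 1.07 and 1.27 CPM in MO/MP-like cells. The pseudogene H2-Ea-ps had 0 UMIs in every class.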

How the data were processed

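Live mononuclear cells of 2 pooled hind limb libraries (Ctrl and dKO, 3 mice each) were profiled with 10x Chromium. The authors deposited raw UMI counts per gene and cell for called cells. The file headers name Cell Ranger 3.0.2, while the submitters' processing notes name Cell Ranger 7.0.0, Seurat 4.3.0, Cufflinks and mm10, so the version behind the counts is uncertain. Of 24984 symbols, 24458 (97.9%) matched GENCODE M21.

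Cells with at least 500 genes were kept. Scrublet (scanpy 1.11.5, Python 3.11.15) called only 4 Ctrl and 14 dKO cells by its own threshold, so the 7.5% with the highest scores were removed instead (325 and 250). Counts were log-normalized, integrated and clustered in Seurat 5.3.0 (R 4.3.3; 2000 variable genes without class II genes, 40 dimensions, resolution 0.8). Clusters were named from 21 marker lists, where a list needed at least 3 markers enriched 2-fold. Parts of the naming rule were settled with the clusters in view. The Fcna+ Cd163+ cluster was left without a cell type name, although 10 of the 12 markers of monocytes and macrophages were enriched in it.

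UMIs were summed per class and library. CPM carry exact Poisson intervals, ratios conditional binomial (Clopper-Pearson) intervals and shares exact binomial intervals, all at 95% and for counting error only, since UMIs of 1 cell are not independent cells or mice. A gene was tested for a call with at least 50 UMIs over both libraries in a class and called at 1.5-fold. The intervals were checked on simulated counts that were drawn independently. These lack the clumping of UMIs in single cells, so the check says nothing on spread between cells or mice. The named genes were the 7 members in every class, the pathway genes past 1.5-fold in MO/MP-like cells and the 10 genes most like the members (at least 100 UMIs). The other pathway genes with values, and those past 1.5-fold in dendritic cell-like and B cell-like cells, were named after their values were seen. The members and all lists were chosen with earlier results of these data known. Alternatives changed doublet removal, clustering genes, integration, resolution, cell filter, the mean over cells, scaling and single cells. A gene of the pathway lists is not reported here.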

Additional observations from a re-analysis of the deposited data

How the results depend on the processing

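No paired analysis was possible because each group is 1 library, and leaving out a replicate was likewise not possible. Values are log2 ratios (dKO to Ctrl) of the 7 genes summed, and the cause of a shift was not tested unless named. In MO/MP-like cells (0.36 as reported) every alternative stayed above 0, with 0.35 without integration, 0.38 at resolution 1.2, 0.38 with at least 200 genes and 1000 UMIs per cell, 0.32 as the mean over cells, 0.28 with clusters weighted as in Ctrl and 0.42 with the cycling cluster counted in. In dendritic cell-like cells (0.12) the values were 0.16 without doublet removal, 0.0612 without integration, -0.0067 with at least 200 genes and 1000 UMIs, 0.14 as the mean over cells and 0.0558 with median scaling. The mean over cells gave 0.0806 in B cell-like cells (-0.0013) and 0.10 in EC-like cells (-0.31). Without doublet removal FAP-like cells (-0.24) had 1.08 and MuSC-like cells (-1.57) had -2.26, and in cells with no UMI of the 8 immune genes they had -0.50 and -0.62. The share of class II UMIs in MO/MP-like cells (-0.763 points, dKO minus Ctrl) was -0.215 without doublet removal, -0.139 with all variable genes, -2.14 without integration, -1.61 with at least 200 genes and 1000 UMIs, 0.350 with the Fcna+ Cd163+ cluster and -2.84 with the cycling cluster counted in. Counting these 2 clusters in was chosen after seeing the data. Of 70 values for single genes in MO/MP-like cells, 60 stayed within the counting interval, 1 had the other sign and 0 passed 1.5-fold. In dendritic cell-like cells this was 41 of 56, with 4 of the other sign, in B cell-like cells 55 of 56, with 10, and in FAP-like cells 47 of 56, with 8 and 12 past 1.5-fold. In the Fcna+ Cd163+ cluster it was 40 of 49, with 5 of the other sign and 6 past 1.5-fold. Ciita, with at most 177 UMIs in any class of a library, is the member that depth limits most.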
